A study of Caenorhabditis elegans with 24 samples.

Results

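Caenorhabditis elegans names most of its cuticle collagen genes col followed by a number, and these genes were followed here through ageing and after blunt force trauma. The deposited table lists 159 such features. A gene was taken as a member when its RPKM (reads per kilobase of exon, scaled to the mapped reads of the library, a level corrected for transcript length) reached 1 or more in 4 or more of the 24 libraries. This left 117 protein-coding members and the pseudogene col-182, and set aside 41 features. Just inside this limit stood col-2, col-9 and col-86, each in 4 libraries, with highest RPKM values of 2.84, 1.79 and 1.35. Just outside it stood col-46, col-91, col-105, col-156 and col-170, each in 3 libraries, with highest values of 1.53 to 5.34. Of the members, 52 reached an RPKM of 1 in all 24 libraries and 76 in at least 1 library of all 6 groups. Another 41 did so in 2 to 5 groups, and col-2 only in 1 group, so that members of these last kinds entered through the groups in which they were high. The members lay on all 6 chromosomes (13 on I, 17 on II, 11 on III, 33 on IV, 24 on V and 20 on X, WBcel235 assembly, which is ce11).

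Whole adult hermaphrodites, labelled as the wild-type strain N2, were all raised at 25 °C on bacteria expressing double-stranded RNA against cdc-25.1, which keeps the worms free of progeny. On day 1 of adulthood the injured worms were agitated at 8600 rpm for 16 s, and the uninjured controls were handled without agitation. RNA was taken 8, 48 and 96 h later, with 4 libraries of injured worms and 4 of age-matched controls at each time. Each library pooled many worms, and whole-worm RNA cannot tell fewer cells of a type from less RNA per cell.

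Cuticle collagens are small secreted proteins built around Gly-X-Y repeats. They are made mainly by the hypodermis, the epidermis of the worm, trimmed and hydroxylated on the way out of the cell, and cross-linked into the layered cuticle. Separate batches are switched on in each larval moult and in the adult, so that the collagen genes in use mark the stage of the epidermis; col-19 is the classical adult-specific one, under the heterochronic factor LIN-29. The adult cuticle is not moulted, and collagen expression is known to decline in ageing worms, with col-10, col-13, col-120 and col-144 linked to lifespan in earlier genetic work. Not every member is a cuticle protein: col-99 encodes a transmembrane collagen. No collagen sequence was analysed here.

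Depth was read from the steps between low RPKM values and came to 19312500 to 30025000 mapped reads in 23 libraries, with 45.1 to 52.7% of low values within 0.1 of a whole read. It could not be read for library 4 of the 48 h controls, in which rRNA genes took 49.95% of the reads. Another 3 libraries held more than 5% rRNA reads (library 2 of the 48 h controls at 8.64%, and libraries 2 and 4 of the injured worms at 8 h, at 5.30 and 8.21%), against 0.683 to 3.13% in the other 20. A typical gene stood 0.95 lower on the log2 scale in library 4 of the 48 h controls than in the other libraries. Means of the 48 h controls include this library, and the members on which the 48 h injury comparison turns are given per library. Counts that move without these libraries or after rescaling are given beside the main ones. Every one of the 20 hypodermis markers passed the filter on low values.

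Reads on the members made up a falling share of the libraries as the worms aged, and a smaller share after injury. At 8 h they took 1.52% ± 0.432 of the reads in injured worms and 2.70% ± 0.385 in controls (SD, n = 4 each), and the groups did not overlap (1.00 to 2.02% against 2.34 to 3.20%). At 48 h the share was 0.536% ± 0.182 in injured worms and 0.665% ± 0.222 in controls, and the groups overlapped. With rRNA reads left out, the 48 h share was 0.545% ± 0.187 in injured worms and 0.782% ± 0.0961 in controls, still with overlap. At 96 h the share of all reads was 0.214% ± 0.0684 in injured worms and 0.308% ± 0.0157 in controls. The groups overlapped here too, since library 2 of the injured worms stood at 0.308%. This total was carried by few genes. In the 8 h controls the 10 most abundant members held 79.7% of the summed RPKM of all members and the 20 most abundant held 96.7%. The 5 highest over all libraries were col-122, col-181, col-101, col-143 and col-106.

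**Figure D1:**
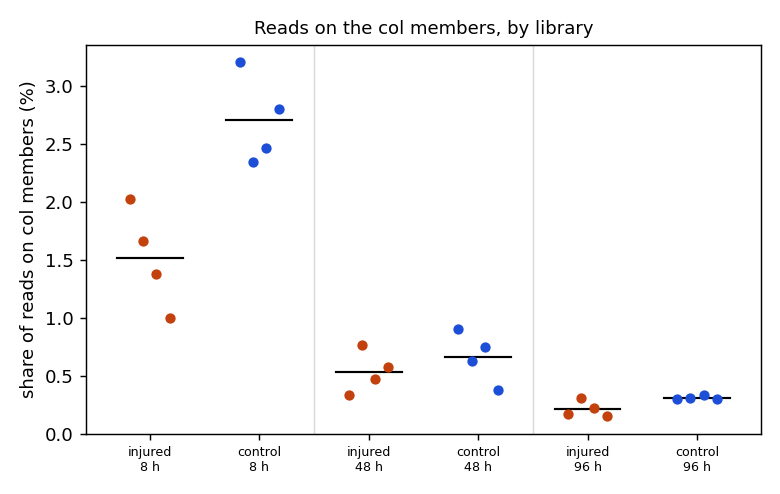
Share of reads (%) on the col members in each library, with injured worms left of controls at 8, 48 and 96 h; points are libraries and lines are group means. The groups are apart at 8 h (1.00 to 2.02% in injured worms, 2.34 to 3.20% in controls) and overlap at 48 and 96 h.

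In uninjured controls most of the called members were lower at 96 h than at 8 h. At 96 h, 53 members (44.9%) were lower than at 8 h and 18 (15.3%) were higher, against 26% lower and 36.2% higher among all 14813 genes tested, and the median member changed by -0.66 on the log2(RPKM + 0.5) scale against 0.19 for all genes. A fall of at least 2-fold was seen for 47 members, a class called age-lowered here, and for 13.6% of all genes. Of the 47, 32 were lower at 48 h than at 8 h, 30 were lower at 96 h than at 48 h, and 16 were lower at both steps. The highest level in the class was that of col-122, which averaged 2876 ± 463, 866 ± 283 and 501 ± 36.8 RPKM in controls at 8, 48 and 96 h (SD, n = 4 each). Likewise col-19, the adult-specific marker, averaged 353 ± 46.2, 98.1 ± 35.4 and 39.7 ± 5.203 RPKM at the same times (96 h against 8 h: log2 change -3.13, SE 0.29, adjusted p = 1.8e-10).

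The deepest falls belonged to col-20, col-80, col-93, col-160, col-140 and col-119, with log2 changes from -6.51 to -4.91 between 96 and 8 h and no overlap of the groups. For col-140, controls at 96 h had 42.9, 28.5, 31.04 and 57.7 RPKM, against 2076, 1482, 1574 and 1736 RPKM at 8 h. For col-20 the 96 h controls had 6.08, 3.81, 0.65 and 9.61 RPKM, against 477, 324, 364 and 403 RPKM at 8 h. These genes left the top of the list without reaching 0. By the stricter rule for a gene that was switched off (age-lowered, at least 1 RPKM in all 4 controls of 8 h and under 1 in all 4 of 96 h), only col-54 and col-131 qualified, or 1.69% of the members against 1.22% of all genes. Both were low to begin with, at 2.00 ± 0.72 and 1.5 ± 0.43 RPKM in the 8 h controls. Just outside this rule stood col-165, with 0.96, 0.81, 0.65 and 1.04 RPKM in the 96 h controls, against 20.7, 30.6, 30.1 and 36.8 RPKM at 8 h.

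The intermediate time showed that the decline was not a single slope. Between 8 and 48 h in the controls, 42 members (35.6%) rose and 36 (30.5%) fell, against 18.8% higher and 30.0% lower among all genes. After rescaling, 49 rose and 36 fell, against 32.1% higher and 30.7% lower among all genes. Between 48 and 96 h, 58 members (49.2%) fell and 3 rose (col-50, col-2 and col-116), against 1.26% lower and 11.7% higher among all genes. After rescaling, 73 fell and 3 rose at this step, against 10.6% lower and 6.62% higher among all genes. Of the 3 rises before rescaling, 1 was left without library 2 of the 96 h controls, and 0 without the 4 libraries rich in rRNA. The 36 early falls included col-165, col-80, col-140, col-74, col-119 and col-179, at log2 changes of -4.42 to -3.02 with no overlap of the groups. A further 27 members rose by 48 h and fell again by 96 h, each step with an adjusted p below 0.05. This pattern was seen in 0.392% of all genes, a share taken without rescaling. The class was formed after seeing the data. It held col-7, col-13, col-120, col-33, col-39, col-81, col-88, col-92, col-129 and col-133 among others, and also col-10. Under some alternative settings the fall lost its call for col-7, col-13, col-120 and col-133. The rise did so for col-10, col-92 and col-129.

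The rise at 48 h was uneven between the control libraries. For col-129, controls at 48 h had 67.1, 34.9, 54.2 and 26.2 RPKM, against 24.5, 9.32, 6.86 and 5.99 RPKM at 8 h, and controls at 96 h fell back to 2.28, 2.13, 2.98 and 3.54 RPKM. For col-133 the 48 h controls had 26.9, 9.3, 9.52 and 4.71 RPKM, against 5.39, 0.05, 0.04 and 0.31 RPKM at 8 h, and the 96 h controls had 0.53, 0.85, 1.01 and 1.58 RPKM. Library 1 of the 48 h controls was highest in both genes and library 4, the one with 49.95% rRNA reads, was lowest. Library 1 of the 8 h controls already came near the lowest of these values, and it alone carried most of the signal of col-133 at that time. Summed over the 27 members, the 48 h controls had 539, 258, 290 and 141 RPKM, against 141, 52.3, 47.0 and 53.0 RPKM in the 8 h controls, so that the lowest of the 48 h libraries was no higher than library 1 of 8 h. For col-129 the rise lost its call without library 1 of the 48 h controls (log2 change 1.84, adjusted p = 0.051) and without library 3 or 4 of the 8 h controls (1.89 and 1.83, adjusted p = 0.052 and 0.053).

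Against this decline, 18 members were higher in the 96 h controls than in the 8 h controls. They were led by col-50, col-183, col-2 and col-69. In col-50 the controls averaged 0.25 ± 0.16, 5.905 ± 2.099 and 15.7 ± 2.11 RPKM at 8, 48 and 96 h (96 h against 8 h: log2 change 4.46, SE 0.28, adjusted p = 8.9e-16). In col-183 they averaged 3.19 ± 1.36, 47.3 ± 18.5 and 47.5 ± 12.5 RPKM (log2 change 3.74, SE 0.29, adjusted p = 7.0e-13). Its reads cannot be fully assigned, because an exon of col-183 overlaps F02D10.10 on the other strand and the strand setting of the counting is not given in the sources used here. A milder rise was that of col-118, with 12.7 ± 0.89, 28.96 ± 10.5 and 34.9 ± 3.56 RPKM (log2 change 1.42, SE 0.22, adjusted p = 1.2e-06). The dauer-associated col-2 rose only to 1.93 ± 0.63 RPKM in the 96 h controls, against 0.32 ± 0.38 RPKM at 8 h, and entered as a member through that group alone.

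**Figure D2:**
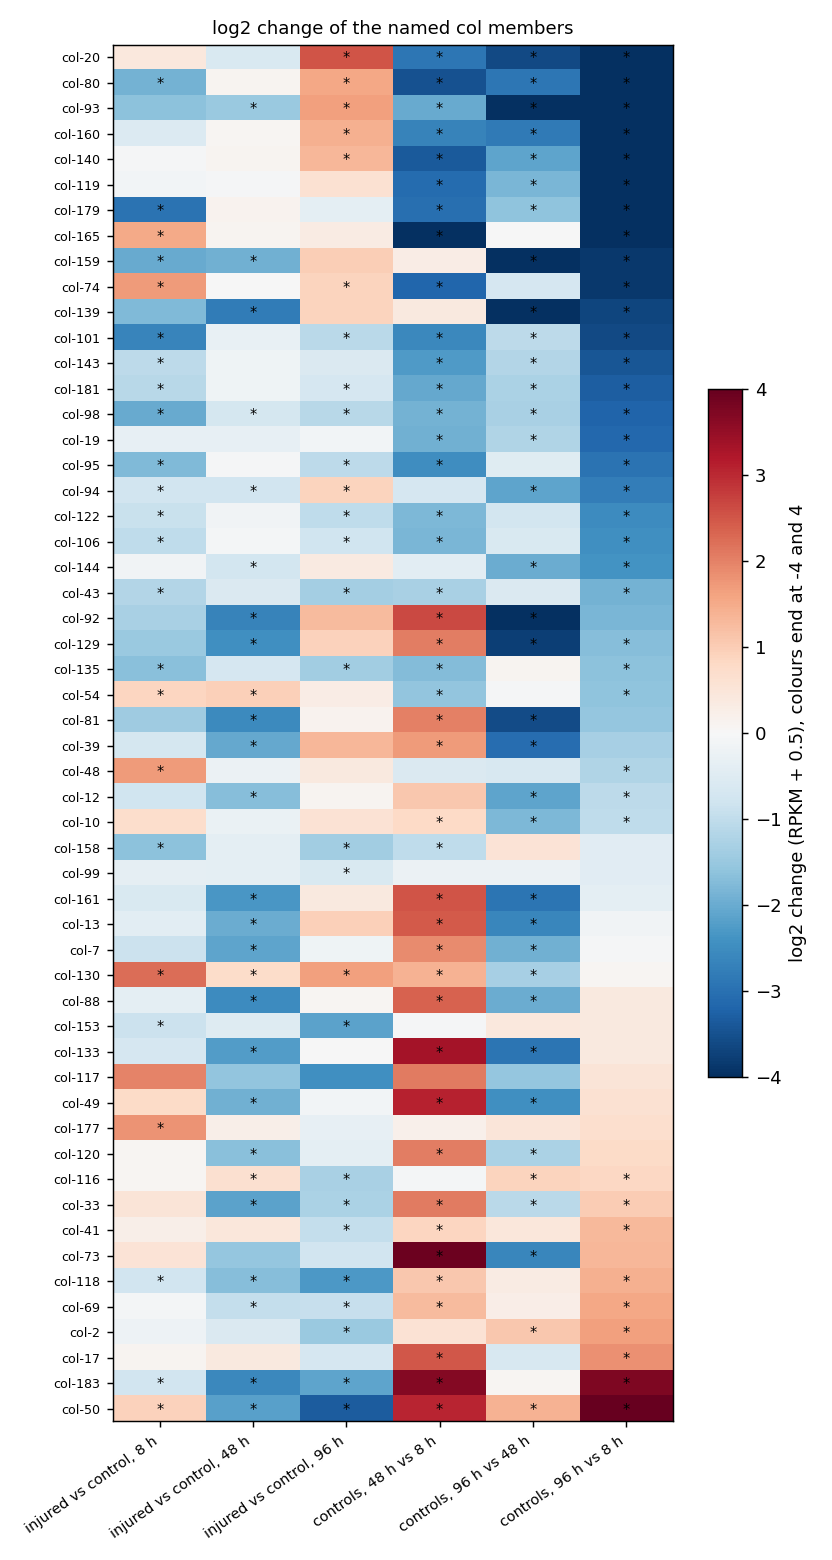
log2 change of the 54 named members (rows, sorted by the change of controls between 96 and 8 h) in 6 comparisons (columns: injured against control at 8, 48 and 96 h, then the 3 time comparisons of the controls); stars mark an adjusted p below 0.05 and colours end at -4 and 4. The steepest age-lowered members at the top have few stars under injury at 48 h, while many members in the lower part rose by 48 h in controls and were lower in injured worms at that time.

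At 8 h after injury some abundant members were lower and others did not pass the test. Of the members, 24 (20.3%) were lower in injured worms and 17 (14.4%) were higher, against 11.4% lower and 11% higher among all genes. After rescaling, 25 were lower and 22 higher, against 16.6% lower and 20.9% higher among all genes. The falls were led by col-179, col-101, col-98, col-159, col-80, col-95, col-135 and col-158. In col-101 the injured worms had 402, 382, 312 and 632 RPKM, against 2945, 2263, 2454 and 2907 RPKM in controls (log2 change -2.65, SE 0.28, adjusted p = 1.5e-08), a mean 6.11-fold lower. In col-179 they had 14.9, 12.7, 10.4 and 41.5 RPKM, against 154, 124, 130.3 and 134 RPKM in controls (log2 change -2.96, SE 0.38, adjusted p = 2.9e-06). Library 4 of the injured worms was the highest of its group in both genes and still lay below every control. An exon of col-179 overlaps C34F6.11 on the other strand.

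The remaining leaders kept the same direction at lower or similar abundance. In col-95 the injured worms had 764, 741, 551 and 561 RPKM, against 2665, 1985, 2081 and 2133 RPKM in controls (log2 change -1.77, SE 0.24, adjusted p = 6.9e-07). In col-98 they had 132, 85.7, 72.8 and 77.95 RPKM, against 447, 309.96, 328 and 400.4 RPKM in controls (log2 change -2.03, SE 0.29, adjusted p = 4.3e-06). The groups were apart in both. Of the 3 most abundant members, col-101 is given above and the others fell less: injured worms averaged 1569 ± 353 RPKM of col-122 and controls 2876 ± 463 RPKM (log2 change -0.89, SE 0.26, adjusted p = 0.010), and for col-181 the averages were 1187 ± 238 RPKM in injured worms and 2512 ± 314 RPKM in controls (log2 change -1.09, SE 0.26, adjusted p = 0.0019).

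Other members of the same high level and the same later decline did not pass the test at 8 h. In col-140 the injured worms had 2593, 2053, 1829 and 779 RPKM, against 2076, 1482, 1574 and 1736 RPKM in controls (log2 change -0.04, SE 0.34, adjusted p = 0.96), and in col-119 they had 2433, 1860, 1618 and 699 RPKM, against 1908, 1474, 1548 and 1622 RPKM in controls (log2 change -0.12, SE 0.31, adjusted p = 0.85). In col-20 the injured worms had 765, 753, 596 and 208 RPKM, against 477, 324, 364 and 403 RPKM in controls (log2 change 0.41, SE 0.62, adjusted p = 0.72). Injured libraries 1 to 3 stood within or above the control range in these genes and library 4, with 8.21% rRNA reads, fell below it, so that the groups overlapped. The marker col-19 likewise did not pass the test at 8 h (log2 change -0.32, SE 0.29, adjusted p = 0.49). Neighbours in abundance thus differed: the 8 h controls averaged 2642 RPKM for col-101 and 1717 RPKM for col-140, and injured worms 432 and 1814 RPKM.

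The 17 members that rose by 8 h were mostly low in controls. The largest rises with separate groups were those of col-130, col-177, col-48 and col-74. For col-74 the injured worms had 103, 102, 96.8 and 54.4 RPKM, against 19.8, 27.97, 24.6 and 35.5 RPKM in controls (log2 change 1.69, SE 0.25, adjusted p = 3.0e-06). For col-165 they had 87.6, 90.7, 96.1 and 64.97 RPKM, against 20.7, 30.6, 30.1 and 36.8 RPKM in controls (log2 change 1.52, SE 0.24, adjusted p = 7.9e-06). Library 4 was the lowest of the injured worms in both genes and still above every control. An exon of col-74 overlaps gtap-1 on the other strand. For col-48 the injured worms averaged 53.8 ± 21.2 RPKM and controls 15.1 ± 1.94 RPKM (log2 change 1.70, SE 0.28, adjusted p = 1.9e-05).

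Of the 17 members, 13 were lower in injured worms at 48 h than at 8 h (a comparison that shares the injured libraries of 8 h), against 19.01% of all genes raised at 8 h. At 48 h, 2 of the 17, col-54 and col-130, were again higher in injured worms than in controls, or 11.8%, against 58.1% of all genes raised at 8 h. Injured worms at 48 h had 1.25, 0.87, 1.16 and 0.7 RPKM of col-165 and 3.5, 2.27, 2.71 and 1.63 RPKM of col-74, within or near the control values of 0.81, 0.78, 1.74 and 0.46 and 2.66, 2.64, 3.29 and 1.57 RPKM. The level of col-130 was higher in injured worms at all 3 times: 8.41, 4.52, 8.09 and 6.41 RPKM against 1.71, 0.96, 0.68 and 0.87 in controls at 8 h, and 4.84, 4.76, 4.1 and 4.19 RPKM against 0.95, 0.94, 0.95 and 1.64 in controls at 96 h (log2 change 2.25, SE 0.29, adjusted p = 2.0e-07 at 8 h; log2 change 1.64, SE 0.29, adjusted p = 8.3e-06 at 96 h). At 48 h its groups overlapped (log2 change 0.75, SE 0.29, adjusted p = 0.026), and the call was lost after rescaling (0.29, adjusted p = 0.30), without library 4 of the 48 h controls (0.41, adjusted p = 0.20) and without library 2 of the injured worms (0.61, adjusted p = 0.094). The 2 members switched off with age, col-54 and col-131, were both among the members raised at 8 h, col-54 at 3.99 ± 1.09 RPKM in injured worms against 2.00 ± 0.72 RPKM in controls and col-131 at 3.89 ± 1.22 RPKM against 1.5 ± 0.43 RPKM.

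Of the 20 hypodermis markers, 7 were higher, 1 was lower and 12 did not pass the test in injured worms at 8 h, with overlapping groups and a summed RPKM of 534 to 1183 in injured worms and 573 to 671 in controls. Over all genes, 11% were higher and 11.4% lower at this time. The largest rise among these markers was that of the cell fusion gene eff-1 (log2 change 3.57, SE 0.43, adjusted p = 2.5e-06). For the 24 oocyte and germline markers the median log2 change was -0.01, and the smallest adjusted p was 0.20.

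**Figure D3:**
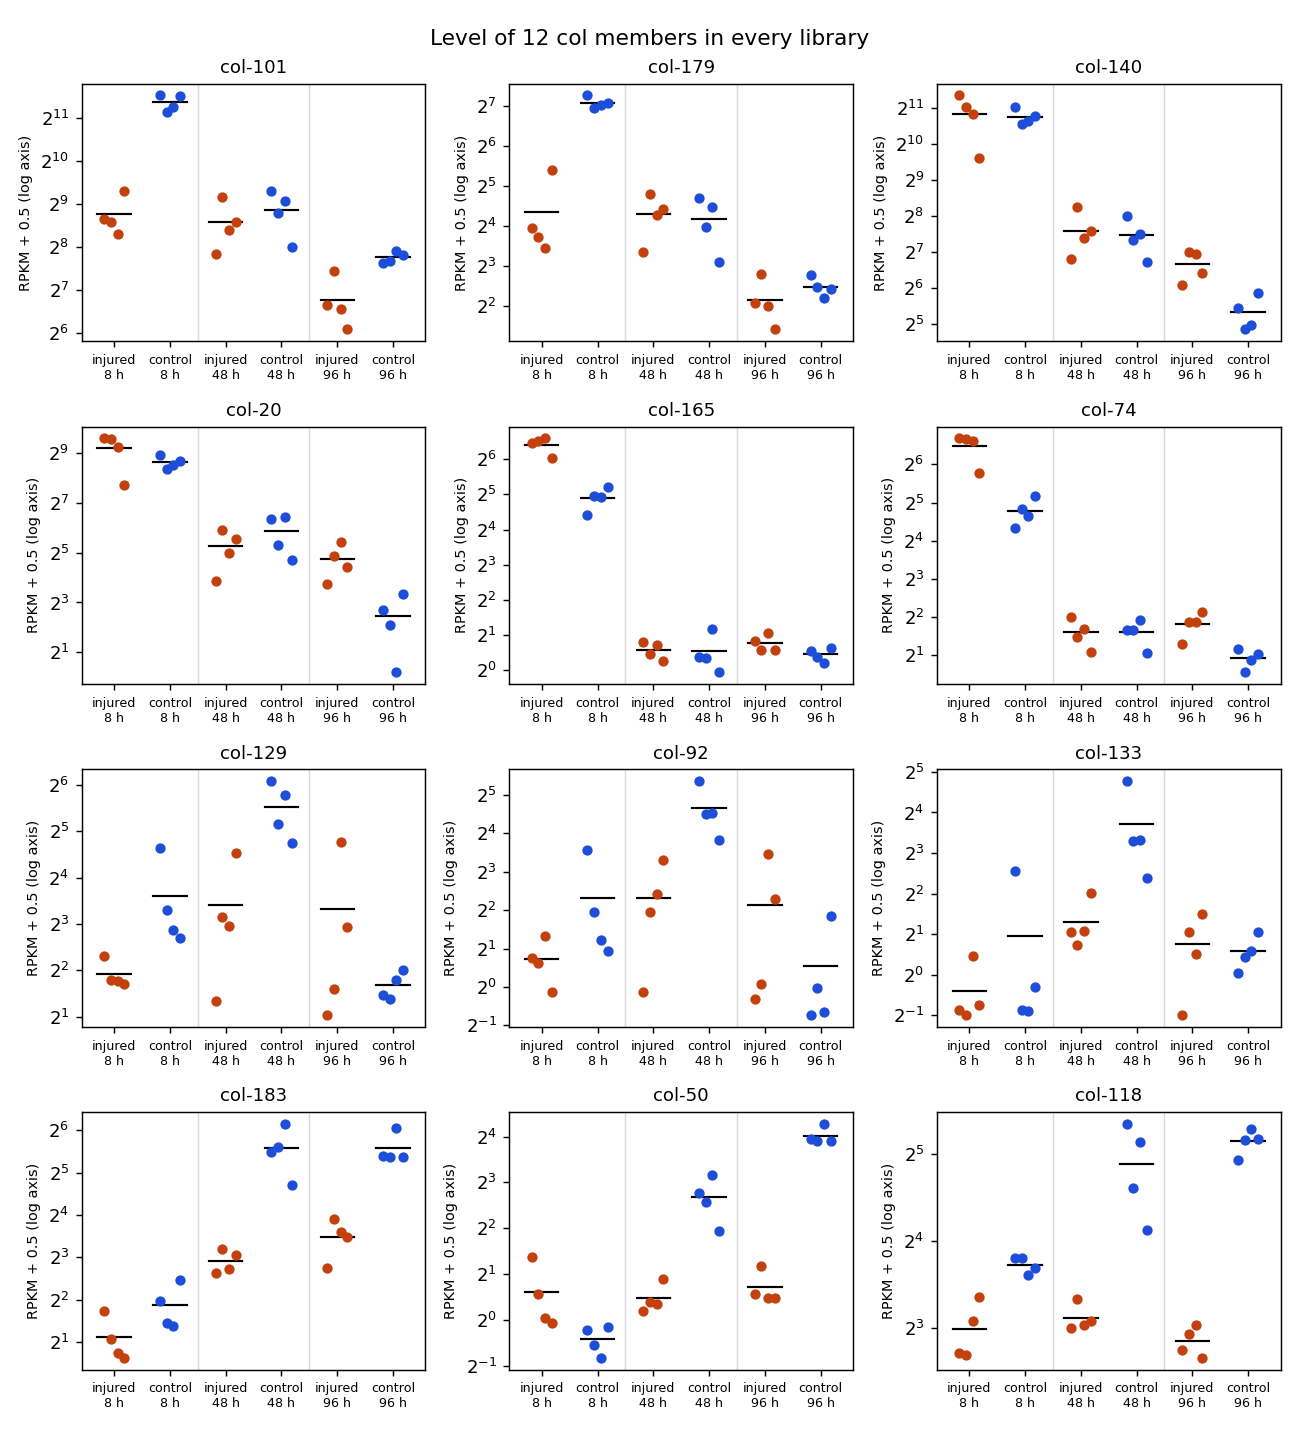
RPKM + 0.5 (log axis) of 12 members in every library, with injured worms left of controls at 8, 48 and 96 h; points are libraries and lines are group means. At 8 h col-101 and col-179 were lower and col-165 and col-74 higher in injured worms; at 48 h col-129, col-92, col-133, col-183, col-50 and col-118 stood higher in controls; at 96 h col-140 and col-20 were higher in injured worms.

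At 48 h more members were called lower in injured worms, most of them not called lower at 8 h. In all, 47 members (39.8%) were lower and 3 were higher (col-54, col-116 and col-130), against 10.2% lower and 45.8% higher among all genes, and the median member changed by -0.53 where the median gene changed by 0.48. With the libraries rescaled by median ratios, which brings the median gene to 0.02, the counts were 75 lower and 1 higher, against 27.98% lower and 30.5% higher among all genes. Without library 1 of the 48 h controls, the highest in the members, 27 were lower. Of the 24 members lowered at 8 h, 7 were lowered at 48 h, which is 29.2% of the 8 h set and 14.9% of the 48 h set, against 45.04 and 50% over all genes. This overlap was counted without rescaling. The 24 had a median log2 change of -0.43 at 48 h, where the median gene changed by 0.48, so a missing call does not show that they had recovered. Markers of the germline also differed: 22 of 24 oocyte and germline markers were higher and 2 were lower in injured worms, with a summed RPKM of 8600 to 9567 in injured worms and 4774 to 11033 in controls. Of the hypodermis markers 5 were higher and 5 lower. The part of these shifts in the collagen values was not tested.

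Falls at 48 h included members that had risen in controls by that time. In col-129 the injured worms had 2.05, 8.42, 7.28 and 22.5 RPKM, against 67.1, 34.9, 54.2 and 26.2 RPKM in controls (log2 change -2.44, SE 0.68, adjusted p = 0.0054), and in col-88 they had 0.33, 0.24, 0.21 and 0.12 RPKM, against 12.4, 3.05, 5.39 and 0.61 RPKM in controls (log2 change -2.53, SE 0.55, adjusted p = 5.9e-04). In col-92 they had 0.42, 3.38, 4.85 and 9.32 RPKM, against 40.6, 22.1, 22.6 and 13.8 RPKM in controls (log2 change -2.67, SE 0.86, adjusted p = 0.013), a call lost without library 1 of the injured worms (-2.001, adjusted p = 0.058). The groups did not overlap in any of these 3 genes, but the injured libraries differed widely, with library 4 highest and library 1 lowest in col-129 and col-92. Among the 27 members that rose and fell again in controls, 24 (88.9%) were lower in injured worms at 48 h, against 77.6% of all genes with this pattern. Both statements use the same 48 h control libraries. All genes with this pattern were 58, and the 27 members are among them. In injured worms alone, 2 of the 27 (7.41%) rose between 8 and 48 h, col-147 and col-149, against 17.2% of all genes with this pattern.

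Deep falls were also those of col-139 and col-81, again with library 4 highest and library 1 lowest among the injured worms. In col-139 the injured worms had 1.16, 5.28, 7.66 and 25.3 RPKM, against 70.4, 36.5, 59.4 and 28.98 RPKM in controls (log2 change -2.79, SE 0.75, adjusted p = 0.0041), and in col-81 they had 1.66, 7.36, 6.52 and 21.5 RPKM, against 65.6, 35.9, 49.98 and 25.3 RPKM in controls (log2 change -2.56, SE 0.74, adjusted p = 0.0067). Library 4 of the injured worms came close to the lowest control in both. A tighter difference was that of col-33, with 0.67, 0.29, 0.96 and 0.9 RPKM in injured worms and 7.4, 3.1, 7.6 and 2.71 RPKM in controls (log2 change -2.15, SE 0.29, adjusted p = 1.4e-07). At 96 h col-129 and col-92 no longer passed the test, with 1.55, 2.54, 26.6 and 7.15 RPKM of col-129 in injured worms, against 2.28, 2.13, 2.98 and 3.54 RPKM in controls, and 0.31, 0.55, 10.4 and 4.41 RPKM of col-92, against 0.1, 0.48, 0.14 and 3.11 RPKM in controls. Library 3 of the injured worms stood highest in both genes.

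Of the 4 lifespan-linked members, 3 were lower in injured worms at 48 h. In col-120 the injured worms had 1.03, 0.5, 0.62 and 0.15 RPKM at 48 h, against 8.03, 2.47, 2.99 and 0.78 RPKM in controls (log2 change -1.67, SE 0.39, adjusted p = 7.1e-04), with overlap. In col-13 they had 1.19, 1.93, 1.12 and 2.4 RPKM, against 14.9, 5.57, 11.6 and 3.7 RPKM in controls (log2 change -1.99, SE 0.68, adjusted p = 0.018), without overlap, a call lost without library 1 of the 48 h controls (-1.69, adjusted p = 0.055). Its close relative col-12 behaved alike (log2 change -1.69, SE 0.45, adjusted p = 0.0028), although reads of so similar a pair may have been shared in counting. For col-144 the difference was smaller (log2 change -0.73, SE 0.30, adjusted p = 0.035) and was lost under 7 of 30 alternatives, among them without library 1 of the 48 h controls (-0.48, adjusted p = 0.17). No difference passed the test for col-10 (log2 change -0.27, SE 0.27, adjusted p = 0.41). None of these 5 passed the test at 96 h: adjusted p was 0.39 for col-120, 0.23 for col-13, 0.83 for col-12, 0.28 for col-144 and 0.061 for col-10.

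A smaller set rose with age in controls and stayed lower in injured worms. The rise with age and the 96 h injury comparison share the 96 h control libraries. Of the 18 members higher in the 96 h than in the 8 h controls, 9 (50%) were lower in injured worms at 96 h. Among all genes with this rise the share was 44.2%, so the share of members was close to the background. At 48 h, where no library is shared, 5 of the 18 (27.8%) were lower, against 12.04% of all genes with this rise. These shares were counted without rescaling. In col-183 the injured worms had 5.66, 8.62, 6.11 and 7.88 RPKM at 48 h, against 44.3, 48.5, 70.6 and 25.7 RPKM in controls (log2 change -2.59, SE 0.29, adjusted p = 7.5e-09), and 6.28, 14.5, 11.6 and 10.7 RPKM at 96 h, against 41.5, 41.2, 66.2 and 41.1 RPKM in controls (log2 change -2.12, SE 0.29, adjusted p = 1.5e-07). In col-50 they had 0.65, 0.8, 0.77 and 1.35 RPKM at 48 h, against 6.34, 5.49, 8.43 and 3.36 RPKM in controls (log2 change -2.16, SE 0.28, adjusted p = 6.1e-08), and 0.98, 1.76, 0.88 and 0.9 RPKM at 96 h, against 14.96, 14.6, 18.9 and 14.5 RPKM in controls (log2 change -3.34, SE 0.28, adjusted p = 3.8e-12). Injured and control worms did not overlap in either gene at either time. Within injured worms col-183 still rose between 8 and 96 h (log2 change 2.39, adjusted p = 2.3e-08), while col-50 did not pass that test (log2 change 0.20, SE 0.28, adjusted p = 0.62). At 8 h col-50 was above the controls in injured worms (log2 change 0.92, SE 0.28, adjusted p = 0.013), a call lost without library 1 of the injured worms (0.62, adjusted p = 0.13) or library 3 of the controls (0.79, adjusted p = 0.062). The difference of the injury effect on col-50 between 96 and 8 h was -4.26 (SE 0.39) on the log2 scale (adjusted p = 6.3e-10).

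The level of col-118 was lower in injured worms at every time. At 48 h it had 7.46, 9.56, 7.67 and 7.97 RPKM in injured worms, against 40.2, 23.9, 34.8 and 16.97 RPKM in controls (log2 change -1.70, SE 0.22, adjusted p = 8.2e-08), and at 96 h 6.18, 7.12, 7.68 and 5.78 RPKM, against 30.1, 35.3, 38.6 and 35.7 RPKM in controls (log2 change -2.30, SE 0.22, adjusted p = 7.9e-11). The 8 h difference was smaller (log2 change -0.77, SE 0.22, adjusted p = 0.0093), and the groups were apart at all 3 times. Injured worms stayed between 5.78 and 9.76 RPKM over the whole course. Besides col-118, col-98, col-155 and col-183 were lower in injured worms at all 3 times. Of these, col-183 lost its 8 h call under 19 of 30 alternatives, for example without library 4 of the controls (-0.56, adjusted p = 0.21). The 48 h call of col-98 was lost under 6, among them without library 3 of the 48 h controls (-0.47, adjusted p = 0.16).

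At 96 h after injury some abundant members were lower and others higher. Of the members, 30 (25.4%) were lower and 10 (8.47%) were higher in injured worms, against 28.4% lower and 32.8% higher among all genes, so the share of members lowered was close to the background. Without library 1 of the injured worms, 16 were higher. The rises with separate groups were led by col-20, col-130, col-160 and col-140. In col-20 the injured worms had 13.1, 28.6, 42.8 and 20.96 RPKM, against 6.08, 3.81, 0.65 and 9.61 RPKM in controls (log2 change 2.53, SE 0.62, adjusted p = 0.0017). In col-140 they had 68.04, 129, 123 and 84.4 RPKM, against 42.9, 28.5, 31.04 and 57.7 RPKM in controls (log2 change 1.33, SE 0.34, adjusted p = 0.0016). Both had missed the test at 8 h, and both were among the members with the deepest falls with age in controls. The falls with age and the 96 h injury comparison share the 96 h control libraries and are not independent. The members col-159 and col-160 overlap each other on the same strand, so their reads cannot be fully told apart.

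Among members lowered at 8 h, col-101 was also low at 96 h. In col-101 the injured worms had 100.1, 174, 93.9 and 66.9 RPKM at 96 h, against 196, 203, 238 and 225 RPKM in controls (log2 change -1.07, SE 0.28, adjusted p = 0.0013), whereas at 48 h they had 228, 573, 332 and 380.3 RPKM, against 630.5, 440.4, 537 and 253 RPKM in controls (log2 change -0.30, SE 0.28, adjusted p = 0.37). The groups were apart at 96 h and overlapped at 48 h. The lowest of the 48 h controls was library 4, with 49.95% rRNA reads, and these values are not rescaled. The 48 h result is therefore no evidence that col-101 had returned to the control level. Of the 24 members lowered at 8 h, 15 were lowered at 96 h, which is 62.5% of the 8 h set and 50% of the 96 h set; the 2 comparisons share no library, and over all genes the shares were 69.9 and 27.98%, so that the share of the 8 h set was near that of all genes. Both col-153 and col-158 belonged to this group. In col-153 the injured worms had 0.93, 0.95, 0.73 and 0.64 RPKM at 96 h, against 5.6, 5.87, 4.77 and 4.85 RPKM in controls (log2 change -2.14, SE 0.24, adjusted p = 2.0e-09). For col-2 they had 0.11, 0.7, 0.48 and 0.21 RPKM, against 1.44, 2.84, 1.87 and 1.58 RPKM in controls (log2 change -1.49, SE 0.28, adjusted p = 1.9e-05), the group through which this gene became a member. The opposite course was taken by col-80, lower in injured worms at 8 h (log2 change -1.89, SE 0.44, adjusted p = 0.0032) and higher at 96 h (log2 change 1.55, SE 0.44, adjusted p = 0.0047). The difference between these effects was 3.44 (SE 0.62) (adjusted p = 2.3e-04).

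**Figure D4:**
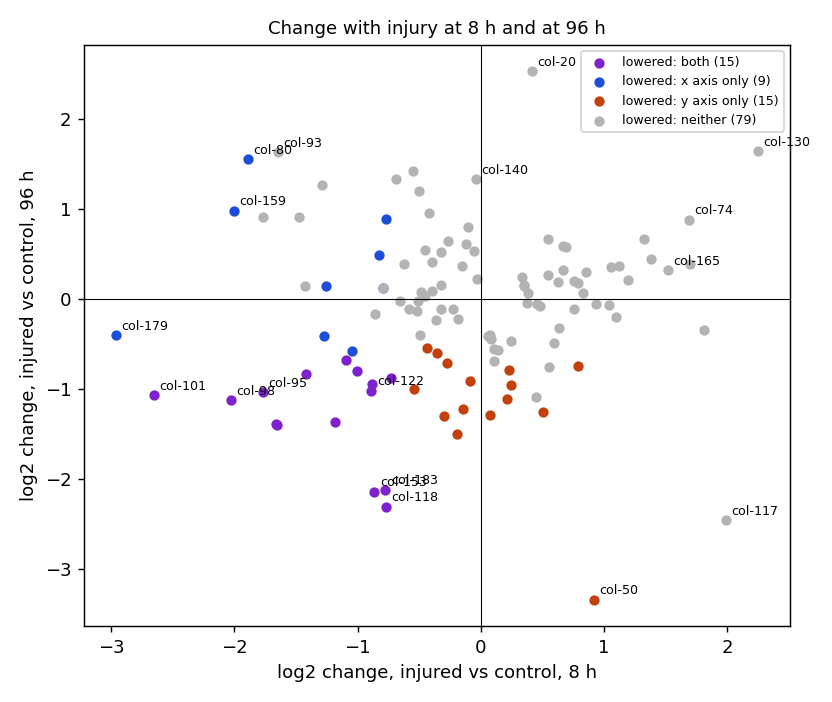
log2 change of each member with injury at 8 h (x axis) and at 96 h (y axis), from libraries that the comparisons do not share; purple members were lowered at both times (15), blue at 8 h only (9), orange at 96 h only (15) and grey at neither (79). Members such as col-101 and col-98 sit low on both axes, while col-80 is low at 8 h and high at 96 h. Although col-93 lies on the same side of both axes as col-80, its 8 h fall did not pass the test. Its 96 h call was lost without some single libraries.

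Genes of collagen processing and cross-linking were lower at 96 h more often than higher. Over all genes, 32.8% were higher and 28.4% lower in injured worms at this time. Of the 20 hypodermis markers 2 were higher, 7 lower and 11 did not pass the test in injured worms, with a summed RPKM of 355 to 455 in injured worms and 667 to 746 in controls. Of 22 genes of collagen modification and secretion 2 were higher and 13 lower, among them the procollagen protease gene dpy-31 (-1.78 (SE 0.22), adjusted p = 2.2e-08) and the prolyl 4-hydroxylase gene dpy-18 (-1.34 (SE 0.20), adjusted p = 4.7e-07). Among the 8 cross-linking genes the 5 that passed the test were all lower, led by the peroxidase gene skpo-1 (-1.71 (SE 0.20), adjusted p = 2.8e-09), with the dual oxidase gene bli-3 at -1.19 (SE 0.23). Of 23 cuticlins 3 were higher and 11 lower, and all 10 intestine markers that passed the test, of 13, were lower. The oocyte and germline markers were again split 22 higher and 2 lower, with a summed RPKM of 6709 to 7391 in injured worms and 12829 to 13532 in controls. The 2 that were lower were the abundant perm-2 and perm-4, genes of the eggshell barrier: perm-4 averaged 1489 ± 432 RPKM in injured worms and 6923 ± 267 RPKM in controls. The part of these shifts in the collagen values was not tested.

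Setting the 2 kinds of decline side by side, the members lowered with age in controls and those lowered by injury overlapped in part. The change of controls between 96 and 8 h and the injury comparison at 48 h share no library. Of the 47 age-lowered members, 17 were injury-lowered at 48 h (36.2% of the age-lowered and 36.2% of the injury-lowered), and col-54 was raised. Over all genes, 10.6% of the age-lowered ones were lowered by injury at 48 h and 68.9% were raised. These calls were made without rescaling, and the overlap was not recounted after it. Rescaling moved the members lowered at 48 h from 47 to 75. It moved the share of all genes lowered from 10.2 to 27.98%, and of those raised from 45.8 to 30.5%. Falls of controls between 48 and 96 h and of injured worms at 8 h were shared by 11 members (18.97% of the 58 and 45.8% of the 24), and falls of controls between 8 and 48 h and of injured worms at 96 h by 14 members (38.9% of the 36 and 46.7% of the 30). In these last 2 pairs the shares over all genes were 37.97 and 4.21%, and 9.08 and 9.57%. The share of 37.97% is of 187 genes, and the 58 members are among them.

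Over all 3 times, 31 age-lowered members were injury-lowered at least once, 16 were not, and 42 members were injury-lowered without being age-lowered. In shares, 65.96% of the age-lowered members and 59.2% of the others were injury-lowered at least once, against 25.8% of the age-lowered and 33.8% of the other genes among all genes tested. These counts pool comparisons that share control libraries, and they were made without rescaling. The 16 age-lowered members that injury lowered at no time were col-8, col-10, col-19, col-20, col-48, col-54, col-65, col-74, col-107, col-119, col-131, col-140, col-150, col-160, col-165 and col-178. The 42 on the injury side alone included col-183, col-50, col-118, col-2, col-33, col-69, col-88, col-133, col-153, col-158 and col-99. In the transmembrane collagen gene col-99 the injury difference was small and passed the test at 96 h alone (log2 change -0.60, SE 0.23, adjusted p = 0.023), a call lost without library 4 of the controls (-0.47, adjusted p = 0.10) or library 3 of the injured worms (-0.53, adjusted p = 0.073); its exons overlap daf-1 on the other strand. In all, 73 members (61.9%, against 32.7% of all genes) were injury-lowered at 1 time or more: 49 at 1 time, 20 at 2 and 4 at all 3.

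**Figure D5:**
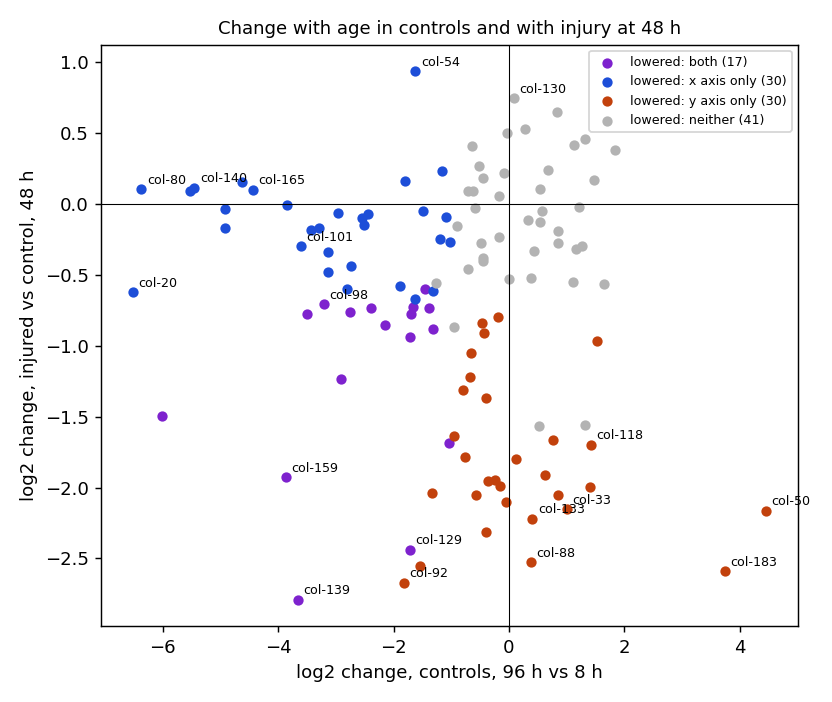
log2 change of each member in controls between 96 and 8 h (x axis) and with injury at 48 h (y axis), from libraries that the comparisons do not share; purple members were lowered in both (17), blue with age only (30), orange with injury only (30) and grey in neither (41). Of the members with the deepest age decline, col-140 and col-80 sit near 0 on the injury axis and col-93 sits at -1.49, and col-183, col-50 and col-118 rose with age and were lower in injured worms.

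Members also declined with time in injured worms. At 96 h, 57 members (48.3%) were lower and 6 higher than in injured worms at 8 h, against 11.2% lower and 23.5% higher among all genes, and 42 of the 47 members that were age-lowered in controls (89.4%) were among the 57, against 23.7% of all age-lowered genes. At 48 h, 40 were lower and 8 higher than at 8 h, against 5.58% lower and 25.2% higher. Without library 4 of the injured worms of 8 h, 5 were higher in that comparison. Between 48 and 96 h, 27 were lower and 0 were higher by limma (0 also at an unadjusted p under 0.05), against 6.69% lower and 2.67% higher. After rescaling, 26 were lower and 1 higher at this step, against 8.57% lower and 9.16% higher among all genes. The 27 became 15 and 17 without library 4 or 1 of the injured worms of 96 h. Without library 4 of the injured worms of 48 h, 16 were lower. The profile of col-101 differed between the groups: its change between 8 and 48 h in controls was -2.57 (SE 0.28) (adjusted p = 7.4e-09), while in injured worms it was -0.22 (SE 0.28) (adjusted p = 0.55).

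The injury effect itself was also compared between times. Between 48 and 8 h the effect became more negative for 26 members and less negative or more positive for 10, against 5.29% and 31.6% of all genes; after rescaling these counts were 53 and 4, against 21.9% and 19.9% of all genes, and without library 4 of the 48 h controls 43 shifted down. The strongest shifts down were col-50, col-49 and col-33, and the strongest shifts up col-179 (3.11 (SE 0.54)), col-101 (2.35 (SE 0.39)) and col-80 (1.99 (SE 0.62)), the last lost without the libraries rich in rRNA (1.44, adjusted p = 0.11). Between 96 and 48 h the effect shifted up for 14 members and down for 5, against 0.662% and 14.3% of all genes, and for 45 and 2 after rescaling, against 7.84% and 7.07% of all genes. Without library 4 of the 48 h controls, 34 shifted up and 3 down. The upward count was 9 without library 1 of the 96 h controls or library 3 of the injured worms of 96 h, and 7 without library 4 of the injured worms of 96 h, and the downward count lay between 2 and 9 over all left-out libraries. Between 96 and 8 h it shifted up for 12 and down for 19, against 23.6% and 20.1%. Without library 4 of the 48 h controls, which this comparison does not use but which sets the shared spread, 19 shifted up.

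Neighbouring members did not always move together. On chromosome III, col-92 (10982139 to 10983253), col-93 (10984552 to 10985609) and col-94 (10986808 to 10987873) lie in a row on the minus strand, within 10 kb of each other. Controls at 8, 48 and 96 h averaged 4.51, 24.8 and 0.96 RPKM for col-92, 258, 67.3 and 4.72 for col-93 and 34.7, 22.4 and 4.603 for col-94. The first was highest at 48 h, col-93 fell at both steps, and col-94 passed the test for a fall between 48 and 96 h but not between 8 and 48 h (adjusted p = 0.054). On chromosome II, col-17 (4866436 to 4867576), col-20 (4869670 to 4870791) and col-73 (4872098 to 4873129) are likewise in a row on the minus strand. There col-20 fell at both steps, while the controls averaged 0.24, 14.8 and 1.64 RPKM for col-73 and 0.17, 3.83 and 2.49 RPKM for col-17 at 8, 48 and 96 h. Median exon length was 1020 bases in age-lowered members, 962 bases in those that rose and fell again, 1084 bases in those higher late in controls and 1024 bases over all members, with a median of 3 exons in the members higher late and 2 in the others; these lengths were not tested. Of all members, 27 overlap an exon of another gene on the other strand and 6 on the same strand.

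Collagens named by phenotype, which are not members, were counted beside them. Of 18 tested, 10 rose and 7 fell in controls between 8 and 48 h, against 18.8% higher and 30.0% lower among all genes. The 4 that passed the test between 48 and 96 h all fell, against 1.26% lower among all genes, or 10.6% after rescaling. The 7 early falls between 8 and 48 h included the larval collagens dpy-17 (-2.88 (SE 0.22)), dpy-7 (-2.76 (SE 0.26)) and sqt-3 (-2.96 (SE 0.28)). For the injury counts that follow, the shares over all genes were 11% higher and 11.4% lower at 8 h. They were 45.8 and 10.2% at 48 h, and 32.8 and 28.4% at 96 h. After injury 1 of the 18 was higher at 8 h, 5 were lower at 48 h and 3 at 96 h, with bli-6, whose loss blisters the cuticle, at -1.76 (SE 0.49) at 48 h (adjusted p = 0.0041). The cuticlin genes cut-2 (1.76 (SE 0.26)) and cut-3 (1.63 (SE 0.25)) rose with injury at 8 h, and in all 5 cuticlins were higher and 1 was lower at that time, against 1 higher and 8 lower at 48 h. Genes of modification and secretion moved less early on, with 2 higher and 4 lower at 8 h and 3 higher and 2 lower at 48 h. Of the 26 regulators linked to collagen genes, 13 were higher and 1 lower in controls at 96 h than at 8 h. Over all genes these shares were 36.2% and 26%. In injured worms 4 were higher and 1 lower at 8 h, 10 higher and 1 lower at 48 h, and 5 higher and 9 lower at 96 h. They included nipi-3, a Tribbles-like kinase gene of the epidermal wound and infection response (1.24 (SE 0.22) at 8 h), and nhr-23, a nuclear receptor gene that drives moulting (1.33 (SE 0.23) at 48 h). The median gene changed by 0.48 at 48 h before rescaling.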

How the data were processed

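Whole-worm poly(A) RNA was sequenced as paired-end reads, mapped by the authors with CLC Genomics Workbench to ce11, and deposited as RPKM values, with no further scaling between libraries. Mapping settings, annotation release and strand setting are not given in the sources used here. The deposited file also holds 6 columns of the authors' p-values and adjusted p-values for injured against control, which were not used. Its columns give the group and no replicate number, so library numbers are column order and only names. Groups follow the labels, which name N2; some legends of the study name CF512. The study calls the 4 libraries of a group independent replicates without saying what was separate, so p-values measure the spread between these samples.

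Values were analysed as log2(RPKM + 0.5), so changes of low genes are understated. Keeping features with RPKM of 1 or more in 4 or more libraries left 14813 of 46739 features. Group means of the 6 groups were estimated by limma 3.58.1 under R 4.3.3 (eBayes with trend and robust settings) for 12 two-sided contrasts, with Benjamini-Hochberg adjustment over all features and a threshold of 0.05. The fit was tested on simulated data. Read shares weighted RPKM by exon length. Annotation came from WBcel235, to which every member was matched. Python 3.11.15, numpy 2.4.6, pandas 2.3.3, matplotlib 3.10.9 and data.table (1.17.8) were used.

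Members, lists and tests were chosen with earlier results of these data known. The named genes were the 8 largest falls and 4 largest rises of each injury comparison, and the 6 and 4 of each control comparison, among called members with mean RPKM of at least 1 and separate groups. To these were added the 3 largest shifts each way of the injury effect, the 5 most abundant members, 16 members chosen by name, and neighbours in clusters of 3 or more within 10 kb. Genes outside this rule are named for small counts or to list a class. Lists of related genes were counted without a set test. Alternatives were pseudocounts of 0.1 and 1, no filter, median-of-ratios scaling, leaving out the 4 libraries with over 5% rRNA reads, each library in turn, and, added after seeing the data, scaling without control 48 h library 4.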

Additional observations from a re-analysis of the deposited data

Results flagged for a closer look

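In groups of 4 libraries, 138 sets of values were examined for a library that stood apart from the other 3 (the read share on the members and the RPKM of 22 members), and 11 were found; chance alone gives about 1 in 20. Library 4 of the injured worms at 8 h was the highest for col-179 (41.5 RPKM) and the lowest for col-74 (54.4 RPKM), nearer to the controls in both. Other injured libraries of 8 h stood high for col-129 (library 1, 4.46 RPKM) and col-133 (library 3, 0.88 RPKM). Library 1 of the 8 h controls was high for col-133 (5.39 RPKM). Among the 96 h controls, library 2 was high for col-48 (7.64 RPKM), library 4 for col-130 (1.64 RPKM) and col-92 (3.11 RPKM), and library 3 for col-183 (66.2 RPKM) and col-50 (18.9 RPKM). Library 2 of the injured worms at 96 h was high for col-50 (1.76 RPKM).

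The effect of injury differed between times for several members by the test of the difference itself, given here as log2 differences. Between 48 and 8 h it shifted by -3.08 for col-50, -2.67 for col-49 and -2.66 for col-33 (adjusted p = 1.2e-06, 0.0022 and 1.2e-05), and by 3.11 for col-179, 2.35 for col-101 and 1.99 for col-80 (adjusted p = 1.4e-04, 4.5e-05 and 0.016). Between 96 and 48 h it shifted by -1.93 for col-116, -1.62 for col-153 and -1.41 for col-41, and by 3.94 for col-92, 3.70 for col-139 and 3.37 for col-39 (adjusted p from 0.0016 for col-116 to 0.036 for col-92). The call was lost under 9 alternative settings for col-92, under 5 for col-41 and under 4 for col-139. Between 96 and 8 h the effect of injury shifted by -4.44 for col-117, -4.26 for col-50 and -2.15 for col-177, and by 3.44 for col-80, 3.28 for col-93 and 2.98 for col-159 (adjusted p from 6.3e-10 for col-50 to 0.025 for col-117). For col-117 the libraries of a group ranged widely, at 0, 0, 0.44 and 8.93 RPKM in injured worms of 96 h and 15.7, 6.62, 11.5 and 0.94 RPKM in controls of 96 h, and the shift lost its call without library 4 of the 8 h controls and 3 other libraries.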

How the results depend on the processing

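No paired analysis was possible because the columns of the table carry no replicate numbers. Of 24 counts of members (higher and lower in 12 comparisons), 11 stayed within 1.5 times of the main count under all 30 alternatives. Of 80 changes of single named members, each among the largest of its comparison, 70 kept their direction and call throughout. Another 10 lost the call at least once (7 of them when 1 library was left out) and 0 reversed. Calls of named members outside these 80 were also lost, among them the 8 h fall of col-183 with injury. Another was the fall of col-7 in controls between 48 and 96 h. The 70 are therefore no measure of all calls given here. The cause of the shifts below was not tested. With median-of-ratios scaling the members lower with injury at 48 h were 75 and those higher 1; the injured worms of 48 h against 8 h had 5 higher and those of 96 h against 48 h had 1 higher; the injury effect shifted down for 53 and up for 4 between 48 and 8 h, and down for 2 and up for 45 between 96 and 48 h. With scaling and without control 48 h library 4, in the same order, the counts were 71, 1, 5, 2, 50, 3, 2 and 39. Without the libraries over 5% rRNA, members higher with injury at 96 h were 16, higher in controls at 96 h against 48 h 0, higher in injured worms at 48 h against 8 h 5, and the injury effect shifted down for 44 and up for 5 between 48 and 8 h, up for 35 between 96 and 48 h and down for 30 between 96 and 8 h. With no filter, 1 member was higher with injury at 48 h and 3 shifted down between 96 and 48 h, a count of 3 that also held with a pseudocount of 0.1. Leaving out 1 library gave 27 to 60 members lower and 1 to 4 higher with injury at 48 h, 8 to 16 higher with injury at 96 h, 1 to 4 higher in controls at 96 h against 48 h, 5 to 10 higher in injured worms at 48 h against 8 h and 15 to 32 lower at 96 h against 48 h. It gave 21 to 43 shifted down between 48 and 8 h, 2 to 9 down and 7 to 34 up between 96 and 48 h, and 11 to 19 up between 96 and 8 h. Depth could not be read for control 48 h library 4. Members lower with injury at 48 h were 60 without that library and 27 without control 48 h library 1.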

Other observations

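Marker lists of other tissues are given as values beside the shares over all genes. In injured worms 11% of all genes were higher and 11.4% lower at 8 h. The shares were 45.8% and 10.2% at 48 h, and 32.8% and 28.4% at 96 h. Of 15 body wall muscle markers, 6 were higher in injured worms at 8 h, among them the myosin gene myo-3 (1.34 (SE 0.26)), 1 was lower at 48 h, and 7 were lower and 1 higher at 96 h. Of 15 neuron markers, 6 were higher at 8 h and 11 at 48 h, and 4 were higher and 1 lower at 96 h. Of 13 intestine markers, 1 was higher and 6 lower at 8 h, with the esterase gene ges-1 at -1.41 (SE 0.22), and 3 were higher and 6 lower at 48 h. Of 9 embryo or larva markers tested, 1 was higher and 4 lower at 8 h, 1 was higher and 3 lower at 48 h, and 1 was higher and 5 lower at 96 h. Of 8 cross-linking genes, 2 were lower at 48 h.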
